A study of Homo sapiens with 24 samples.

Results

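Plate cultures of a line that overexpressed the MRTF-A mutant titled dSAP were set against plate cultures of a line that overexpressed the mutant titled dSRF. Both lines are derivatives of the human breast cancer line MDA-MB-231, which has a mesenchymal, basal-like character. The libraries were chosen by their column titles, 3 of dSAP and 3 of dSRF in plates, which is 6 of the 24 libraries of the series. The series holds 4 lines, dSAP, dSRF, a line that overexpressed wild-type MRTF-A (WT) and a control line, each grown in plates (2D) and on matrigel (3D), a gel of basement membrane proteins, with 3 libraries of every line in either culture. All 4 lines, control included, carry the label of 1 ug/ml doxycycline for 72 h, and doxycycline induced the introduced MRTF-A. Medium held fetal bovine serum, and matrigel was also added to it in 3D. The labels spell out neither dSAP nor dSRF, name no vector, and do not say whether a line is 1 clone or a pool. They also do not say whether the 3 libraries of a group came from separate cultures, so the p-values measure only the spread between these libraries, which may be technical. The question stated with the series is how overexpression of MRTF-A changes the transcriptome. The comparison of dSAP with dSRF sets its 2 mutants against each other.

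MRTF-A, encoded by MRTFA, is a coactivator that monomeric actin holds in the cytoplasm. When actin polymerises it enters the nucleus and binds SRF, a transcription factor that recognises the CArG box in promoters of actin, contractile and adhesion genes. The protein also carries a SAP domain, a small motif found in proteins that bind DNA.

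Levels are given as TMM-normalised counts scaled to library size (CPM). Differences are log2 fold changes of dSAP over dSRF with a standard error (SE). The SE was derived from the test, as the size of the log2 fold change over the square root of its F statistic. Adjusted p-values come from edgeR's quasi-likelihood test with Benjamini-Hochberg adjustment over 14330 genes. A gene was called at an adjusted p under 0.05. Total counts of the 12 plate libraries ran from 13968829 to 20672111. The genotype field of the labels disagrees with the titles for 16 of the 24 libraries, and for 4 of the 6 compared here. The first principal component of the plate libraries, with 58.5% of the variance, set dSRF apart: scores were -35.13 to -31.91 for the dSAP libraries, 95.26 to 103.1 for the dSRF libraries, and -34.89 to -32.01 for WT and control, which overlapped dSAP. The second, with 17.8%, had scores of -17.48 to -16.98 for dSAP, -1.408 to 1.987 for dSRF, -34.43 to -33.44 for WT and 50.79 to 51.48 for control, with no overlap between titles. All 8 markers of MDA-MB-231 were expressed in both lines, with sums of 5806 to 6011 CPM in dSAP and 4786 to 5106 CPM in dSRF. CDKN2A and CDKN2B, known to be deleted in this cell line and looked up after the data were seen, had 0 counts in all 24 libraries. In such bulk libraries fewer cells of a type and less RNA per cell cannot be told apart.

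The 2 lines differed across most of the transcriptome. The actin genes, smooth muscle genes and mitotic genes stood higher in dSAP. The simple-epithelium keratins KRT8 and KRT18, the S100 genes and the metallothioneins stood lower, and 126 genes with at least 1 CPM in every dSRF library were at or near 0 in dSAP. The test called 10474 of 14330 genes (73.1%), 5176 higher (36.1%) and 5298 lower (37.0%) in dSAP, and the median log2 fold change of all genes tested was -0.014. Counts of called members in the gene lists below are to be read beside these shares. A difference of at least 2-fold was called for 1251 genes higher (8.73%) and 1880 lower (13.1%). The 3 dSAP and 3 dSRF libraries did not overlap for 5037 of the genes called higher (35.2% of those tested) and 5163 called lower (36.0%). The balance shifted with size: at 8-fold or more 90 genes were higher and 473 lower, and at 32-fold or more 4 were higher and 209 lower. The plot of fold change against level shows this tail of genes near 0 in dSAP.

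**Figure D1:**
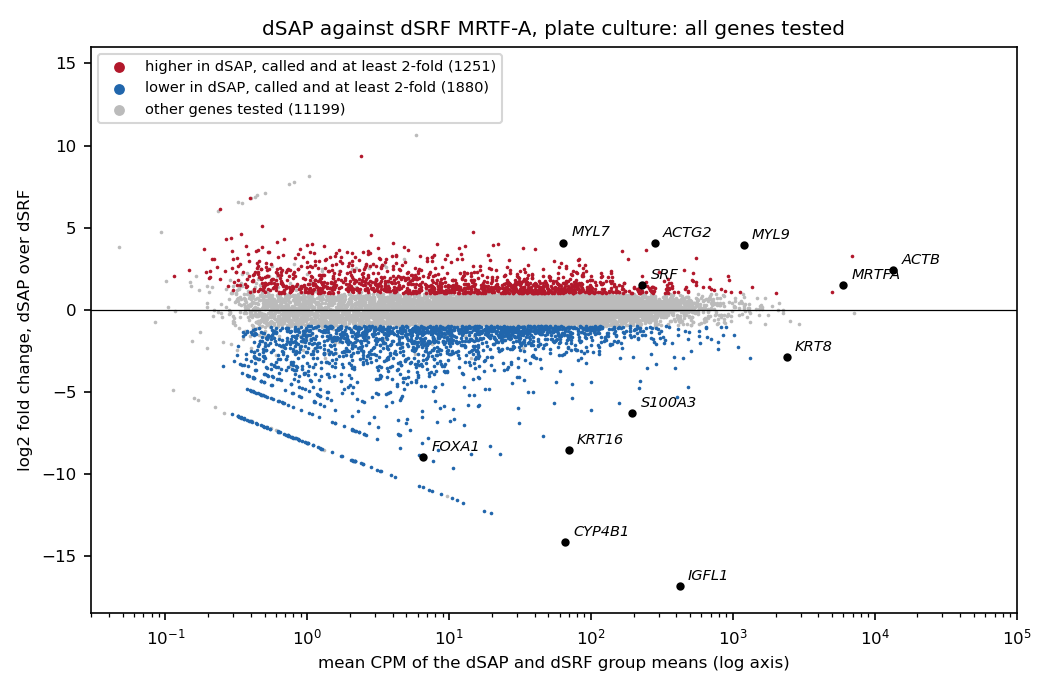
Log2 fold change of dSAP over dSRF in plates (vertical axis) against the mean CPM of both groups (log axis) for the 14330 genes tested, with red for the 1251 genes called at least 2-fold higher in dSAP and blue for the 1880 called at least 2-fold lower. The lower edge runs far deeper than the upper one, to -16.83 for IGFL1, where dSAP had 0 counts and the fitted value is no bound.

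MRTFA itself (ENSG00000196588, chromosome 22, 40410281 to 40636702, GRCh38) was measured first. It stood at 8499, 9322 and 8757 CPM in the dSAP libraries and at 3083, 3069 and 3253 CPM in the dSRF libraries. Every library of both lines lay far above the control line, at 36.2 ± 2.12 CPM (mean ± SD, n = 3), and WT lay between the mutant lines at 4587 ± 187 CPM. The dSAP line thus held 2.83-fold more MRTFA RNA than the dSRF line (log2 1.50 ± 0.05, adjusted p = 1.23e-14). The tables give 1 value per gene, so RNA of the introduced and of the cell's own MRTFA was not separated. The mutation, the amount of MRTFA RNA and any other difference between the 2 lines cannot be told apart in these libraries.

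SRF, the partner of MRTF-A, was higher in dSAP, and the ternary complex factor ELK1 was lower. SRF had 332, 343 and 341 CPM in dSAP and 118, 113 and 129 CPM in dSRF, without overlap (1.49 ± 0.05, adjusted p = 8.94e-15). The dSRF level lay just above the 112 ± 5.38 CPM of control (0.11, adjusted p = 0.0446), and the dSAP level below the 399.8 ± 10.6 CPM of WT. ELK1, which competes with MRTFs for SRF, had 86.0, 86.1 and 86.1 CPM in dSAP and 197, 193 and 192 CPM in dSRF (-1.17 ± 0.04, adjusted p = 8.71e-15). MRTFB, the paralogue of MRTFA, averaged 33.8 ± 0.685 CPM in dSAP and 22.2 ± 0.854 CPM in dSRF (0.61 ± 0.06, adjusted p = 5.26e-08), a call not made on the TPM values (adjusted p = 0.0651 with a pseudocount of 0.1).

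All 5 actin genes tested were higher in dSAP, with a median log2 fold change of 3.27. Their summed level was 34045 to 37672 CPM in dSAP and 5018 to 6697 CPM in dSRF, against 47492 to 49607 CPM in WT and 8147 to 8542 CPM in control. ACTB, the cytoplasmic beta-actin, had 21342, 23856 and 22586 CPM in dSAP and 3894, 4023 and 4971 CPM in dSRF (2.39 ± 0.08, adjusted p = 5.65e-12). ACTG1, cytoplasmic gamma-actin, had 12118, 13076 and 12702 CPM in dSAP and 1089, 1175 and 1654 CPM in dSRF (3.27 ± 0.14, adjusted p = 2.55e-08). Over control, ACTB was higher in dSAP (log2 2.02, adjusted p = 2.08e-10) and lower in dSRF (-0.37, adjusted p = 5.49e-04). ACTG1 likewise was higher in dSAP (2.16, adjusted p = 1.42e-06) and lower in dSRF (-1.11, adjusted p = 4.81e-05). These contrasts share the 3 control libraries. Per transcript length, ACTB stood at 25558 TPM in dSAP and 5107 TPM in dSRF, and ACTG1 at 17686 TPM in dSAP and 1925 TPM in dSRF, so that the beta form was the more abundant of the pair in both lines.

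Of the muscle actins, ACTG2 and ACTC1 had the larger folds. ACTG2, the enteric smooth muscle actin, had 476, 592 and 527 CPM in dSAP and 19.5, 27.3 and 46.6 CPM in dSRF (4.06 ± 0.25, adjusted p = 4.72e-07). ACTC1, cardiac actin, had 15.8, 16.3 and 14.6 CPM in dSAP and 0.472, 0.609 and 1.60 CPM in dSRF (4.02 ± 0.24, adjusted p = 1.73e-09). ACTA2, vascular smooth muscle actin, had 92.4, 132 and 123 CPM in dSAP and 13.9, 16.7 and 23.7 CPM in dSRF (2.65 ± 0.19, adjusted p = 1.41e-06). The third dSRF library was the highest of its group for each of these actins, and none reached a dSAP library. Without it the difference of ACTC1 was 4.83. Control had 0.0488 ± 0.0470 CPM of ACTG2, 0.0538 ± 0.00766 CPM of ACTC1 and 3.24 ± 0.498 CPM of ACTA2, so that the dSRF line also stood above control for all 3 (log2 9.05, 3.99 and 2.50, adjusted p = 7.85e-06, 3.25e-05 and 7.84e-05). Actin genes have near-identical coding sequences, and the split of reads among them is uncertain. The annotated span of ACTA2 also overlaps that of FAS.

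The promoters of 4 of the strongly rising genes that hold a CArG box are shown because SRF binds this element. They are RefSeq sequences of GRCh38.p14, from 250 bases before to 50 after the annotated start, written 5′ to 3′ on the gene's strand, with the CArG box in capitals. ACTG2 lies at chr2:73892758-73893057 on the plus strand, with boxes that begin 110 and 73 bases before the start. ACTC1 lies at chr15:34795500-34795799 on the minus strand with its box at 109 bases, ACTG1 at chr17:81512750-81513049 on the minus strand with its box at 94 bases, and CNN2 at chr19:1026358-1026657 on the plus strand with its box at 89 bases.
ACTG2: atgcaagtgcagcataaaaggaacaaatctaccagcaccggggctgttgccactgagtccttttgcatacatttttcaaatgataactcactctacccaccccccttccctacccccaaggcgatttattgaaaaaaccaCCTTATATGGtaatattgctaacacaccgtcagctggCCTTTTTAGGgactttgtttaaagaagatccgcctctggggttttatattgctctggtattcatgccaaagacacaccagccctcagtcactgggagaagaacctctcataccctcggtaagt
ACTC1: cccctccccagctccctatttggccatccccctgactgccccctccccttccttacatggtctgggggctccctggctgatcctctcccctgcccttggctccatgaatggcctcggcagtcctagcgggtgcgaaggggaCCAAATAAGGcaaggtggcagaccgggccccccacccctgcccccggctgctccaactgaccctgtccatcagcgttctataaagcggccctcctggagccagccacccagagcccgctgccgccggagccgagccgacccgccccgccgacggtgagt
ACTG1: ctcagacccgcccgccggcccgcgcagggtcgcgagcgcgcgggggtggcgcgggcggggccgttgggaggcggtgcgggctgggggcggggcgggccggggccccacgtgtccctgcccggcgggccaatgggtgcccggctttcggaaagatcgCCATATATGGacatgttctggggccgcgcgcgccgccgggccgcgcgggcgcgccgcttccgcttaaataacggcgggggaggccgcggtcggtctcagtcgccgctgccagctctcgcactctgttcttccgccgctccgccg
CNN2: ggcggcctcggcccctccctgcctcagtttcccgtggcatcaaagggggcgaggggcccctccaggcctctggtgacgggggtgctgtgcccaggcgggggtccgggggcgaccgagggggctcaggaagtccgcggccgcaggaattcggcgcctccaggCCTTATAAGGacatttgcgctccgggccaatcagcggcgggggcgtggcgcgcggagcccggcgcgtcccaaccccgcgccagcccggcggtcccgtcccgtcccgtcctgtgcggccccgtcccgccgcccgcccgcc

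All 12 smooth muscle contractile regulators tested, of 14 listed, were higher in dSAP (median 1.65, from 0.32 for CALD1 to 4.01 for LMOD1). TAGLN, the actin-binding protein transgelin, had 298, 314 and 303 CPM in dSAP and 17.2, 22.0 and 35.9 CPM in dSRF (3.57 ± 0.20, adjusted p = 2.21e-07). WT stood higher still, at 1282 ± 3.32 CPM, and control at 4.47 ± 0.749 CPM. CNN1, the smooth muscle calponin, had 9.12, 9.52 and 8.54 CPM in dSAP and 0.607, 0.338 and 0.901 CPM in dSRF (3.81 ± 0.29, adjusted p = 1.67e-08). The dSRF level of CNN1 did not differ from the 0.479 ± 0.359 CPM of control beyond the spread (adjusted p = 0.395). LMOD1, leiomodin, which nucleates actin filaments in smooth muscle, had 34.3, 48.0 and 41.9 CPM in dSAP and 1.08, 2.98 and 3.35 CPM in dSRF (4.01 ± 0.24, adjusted p = 1.42e-07). CNN2, the widely expressed calponin whose promoter is shown above, had 1089.7, 1109.7 and 1077 CPM in dSAP and 280.1, 290.4 and 323 CPM in dSRF (1.87 ± 0.04, adjusted p = 3.30e-16). It was the member with the lowest p of this list, and dSAP exceeded the 842 ± 5.02 CPM of WT. KCNMB1, a subunit of the large-conductance potassium channel of smooth muscle, was low in both lines, at 1.65 ± 0.281 CPM in dSAP and 0.124 ± 0.0707 CPM in dSRF (3.70 ± 0.30, adjusted p = 1.44e-08), while WT had 25.2 ± 0.533 CPM. Myocardin, MYOCD, the muscle relative of MRTF-A, had 0 counts in both.

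**Figure D2:**
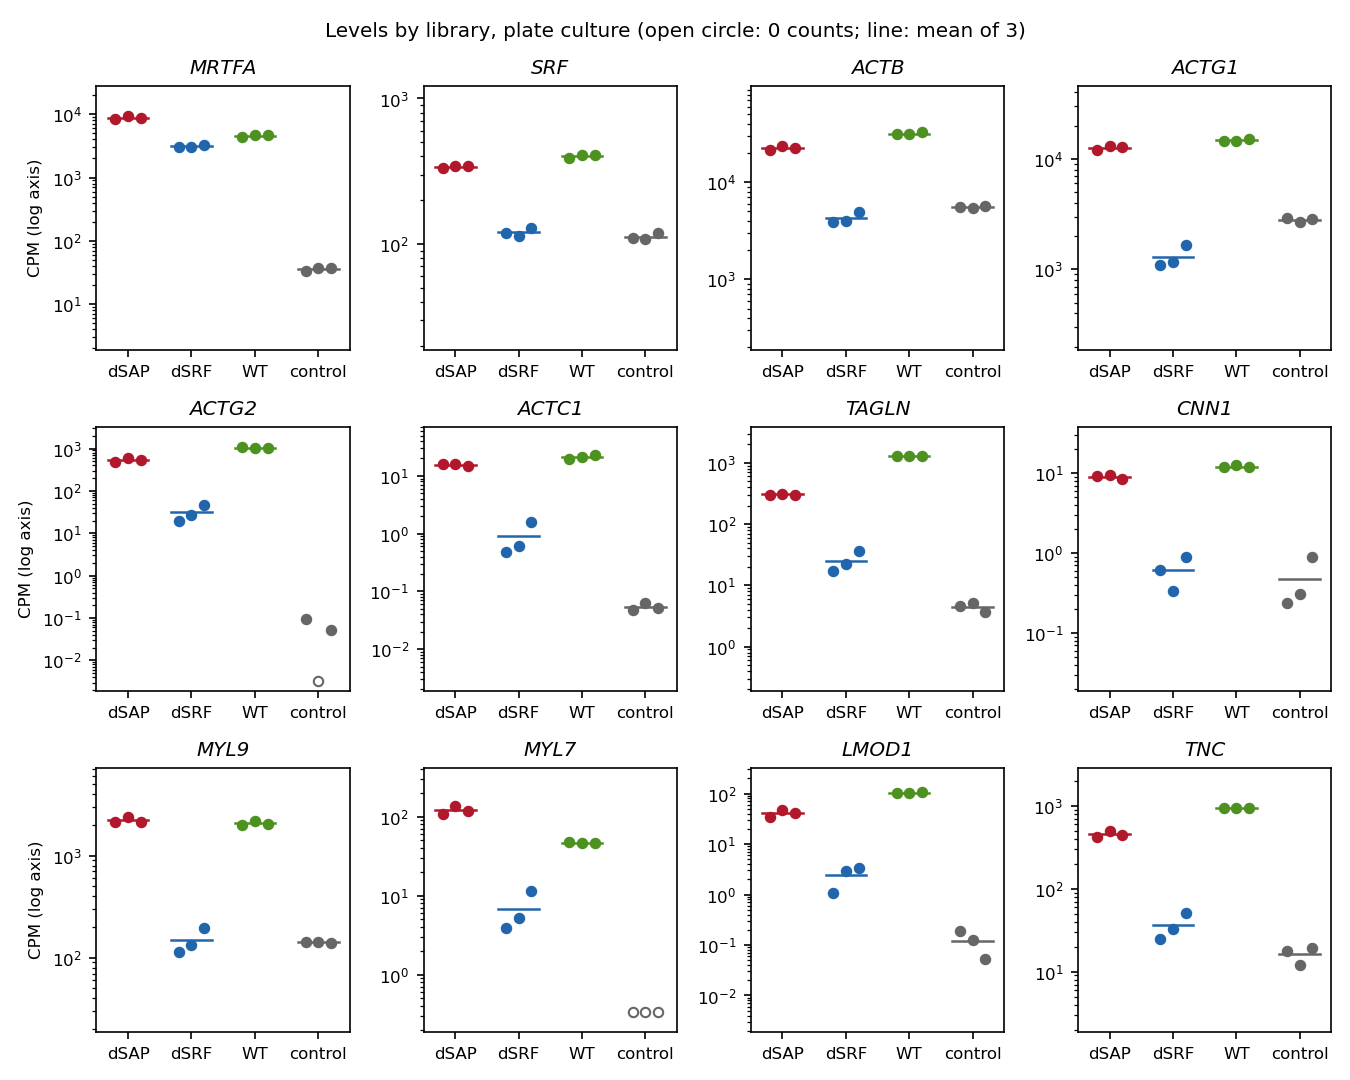
CPM (log axis) of 12 genes in the plate libraries of dSAP, dSRF, WT and control, with 1 point per library, open circles for 0 counts and a line at the mean of 3 where all are above 0. For each gene the 3 dSAP libraries lie above the 3 dSRF libraries. The dSRF libraries are above control for ACTG2, ACTC1, TAGLN, MYL7, LMOD1 and TNC, near it for SRF, CNN1 and MYL9, and below it for ACTB and ACTG1.

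Myosin II genes divided by chain. Of 9 tested, 6 were higher and 1 lower (median 0.80). MYL9, the regulatory light chain of smooth muscle myosin, had 2141, 2413 and 2151 CPM in dSAP and 115, 133 and 197 CPM in dSRF (3.91 ± 0.18, adjusted p = 6.40e-08). The dSRF libraries sat around the 141 ± 2.17 CPM of control (adjusted p = 0.710). MYL7, the atrial regulatory light chain, had 108, 138 and 118 CPM in dSAP and 3.91, 5.28 and 11.3 CPM in dSRF (4.08 ± 0.30, adjusted p = 1.77e-05), or 4.72 without the third dSRF library. It had 0 counts in control, and dSAP stood above the 46.9 ± 0.702 CPM of WT. The heavy chains went otherwise. MYH9, the main non-muscle heavy chain, averaged 2266 ± 174 CPM in dSAP and 2275 ± 66.1 CPM in dSRF (-0.01 ± 0.07, adjusted p = 0.947). MYH14, a heavy chain of epithelia, was lower in dSAP at 0.391 ± 0.216 CPM than in dSRF at 6.91 ± 0.969 CPM (-4.10 ± 0.35, adjusted p = 6.77e-09). Among 4 tropomyosins, the filament coats of actin, TPM1 (2.24 ± 0.06), TPM2 (1.73 ± 0.13) and TPM4 (1.07 ± 0.04) were higher and 1 was lower.

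Focal adhesion and stress fibre genes rose in smaller steps, 14 of 19 higher and 3 lower (median 0.94). ZYX, zyxin, had 562, 559.7 and 545 CPM in dSAP and 170.5, 173 and 186 CPM in dSRF (1.65 ± 0.04, adjusted p = 1.77e-16). VCL, vinculin, had 984, 1053 and 1021 CPM in dSAP and 595, 601 and 635 CPM in dSRF (0.74 ± 0.04, adjusted p = 5.08e-12). In dSRF VCL lay near the 619 ± 13.5 CPM of control (adjusted p = 0.618), and in WT it reached 1800.2 ± 3.08 CPM. The actin crosslinker FLNA was higher (1.06 ± 0.05), and the stress fibre proteins NEXN (2.46 ± 0.08) and FHL1 (2.43 ± 0.14) led the list. The scaffold proteins PXN (-0.76 ± 0.03), PARVA (-0.70 ± 0.03) and TES (-0.32 ± 0.04) were lower in dSAP. Of 14 actin bundling and turnover genes 11 were higher and 2 lower. LCP1, the bundling protein L-plastin, had 953, 1049 and 983 CPM in dSAP and 92.8, 102 and 139 CPM in dSRF (3.15 ± 0.13, adjusted p = 1.80e-08). Of 9 subunits of the Arp2/3 complex, which nucleates branched actin, 7 were higher and 2 lower, with ARPC1B at -1.73 ± 0.04.

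A CArG box was rare among promoters in general. RefSeq gave a promoter window for 10530 of the genes tested, and 118 of these (1.12%) held the CArG box on either strand, a palindromic element, so that both strands read alike. It was present in 62 of 4060 genes called higher in dSAP (1.53%), in 24 of 874 higher by at least 2-fold (2.75%) and in 8 of 55 higher by at least 8-fold (14.5%). Among genes called lower it was present in 30 of 3999 (0.75%), in 13 of 1299 lower by at least 2-fold (1%) and in 6 of 301 lower by at least 8-fold (1.99%). The box was found in 3 of 4 actin promoters, in 2 of 11 contractile promoters (CNN2 and MYLK) and in MYL7, TPM4, FHL2 and FLNA. TGANTCA, the AP-1 motif, and GGAATG, the TEAD motif, were searched on both strands in the same windows. TGANTCA was held by 4.68% of all promoters, 6.41% of those at least 2-fold higher in dSAP and 7.47% of those at least 2-fold lower. At 8-fold it was held by 8 of 55 higher (14.5%), the same count as the CArG box, and by 30 of 301 lower (9.97%). GGAATG was held by 10.9% of all, 13% of the 2-fold higher and 10.5% of the 2-fold lower promoters, and at 8-fold by 10 of 55 higher (18.2%) and 41 of 301 lower (13.6%). From all promoters to those at least 8-fold higher, the share of the CArG box went from 1.12% to 14.5%. That of TGANTCA went from 4.68% to 14.5%, and that of GGAATG from 10.9% to 18.2%. A match describes the letters in this window and does not show binding, and these shares were not tested.

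Targets of YAP and TEAD, another actin-sensitive pathway, were mixed: 11 of 19 were higher, 3 lower (median 0.37). CCN2, the matricellular protein CTGF, had 229, 245 and 253 CPM in dSAP and 80.8, 83.1 and 96.9 CPM in dSRF (1.47 ± 0.07, adjusted p = 8.67e-11). CCN1, its relative CYR61, had 2326, 2382 and 2543 CPM in dSAP and 1839, 1713 and 1936 CPM in dSRF (0.40 ± 0.05, adjusted p = 2.10e-06). The call of CCN1 was lost when all 24 libraries shared 1 fit (adjusted p = 0.115). F3, tissue factor, was higher (2.05 ± 0.09), while ANKRD1 (-1.79 ± 0.07) and the kinase gene NUAK2 (-2.58 ± 0.06) were lower in dSAP.

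Genes of the interstitial matrix were mostly higher, 12 of 18 tested against 5 lower (median 0.88). TNC, tenascin C, had 416, 503 and 444 CPM in dSAP and 25.0, 32.5 and 51.6 CPM in dSRF (3.61 ± 0.23, adjusted p = 7.01e-07). VCAN, the proteoglycan versican, had 41.3, 36.7 and 37.5 CPM in dSAP and 1.96, 1.49 and 3.80 CPM in dSRF (3.93 ± 0.25, adjusted p = 1.24e-07). COL1A2 rose with them (3.05), while COL6A3 (-2.16) and COL1A1 (-0.87 ± 0.09, not called with all 24 libraries in 1 fit, adjusted p = 0.102) were lower. Basement membrane genes showed no such balance, with 7 of 14 higher, 5 lower and a median of 0.03.

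Integrin subunits were divided, as were all genes tested (36.1% higher and 37.0% lower): 5 of 13 were higher and 8 lower (median -0.45). ITGA5, the fibronectin receptor subunit, had 672, 839 and 791 CPM in dSAP and 125, 133 and 169 CPM in dSRF (2.43 ± 0.12, adjusted p = 2.79e-08). ITGB3, the beta-3 subunit, averaged 109 ± 7.77 CPM in dSAP and 14.8 ± 3.53 CPM in dSRF (2.86 ± 0.12, adjusted p = 7.02e-10). ITGB8, a subunit that binds latent TGF-beta, went the other way, with 0.577, 0.125 and 0.843 CPM in dSAP and 29.8, 32.4 and 31.8 CPM in dSRF (-5.87 ± 0.24, adjusted p = 5.65e-12). ITGB4, the hemidesmosome subunit, averaged 233 ± 17.0 CPM in dSAP and 939 ± 38.0 CPM in dSRF (-2.01 ± 0.05, adjusted p = 5.02e-16). The dSAP level of ITGB8 was near control (0.483 ± 0.101 CPM), and the high level belonged to dSRF.

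The simple-epithelium keratins KRT8, KRT18 and KRT19 were lower in dSAP. KRT8 had 562, 587 and 583 CPM in dSAP and 4284, 4236 and 4119.5 CPM in dSRF (-2.87 ± 0.04, adjusted p = 2.24e-19). Its partner KRT18 had 287, 323 and 299 CPM in dSAP and 2400.3, 2442 and 2173 CPM in dSRF (-2.95 ± 0.06, adjusted p = 2.41e-16). Control had 428 ± 11.5 CPM of KRT8 and 252 ± 15.5 CPM of KRT18, so that dSAP was nearer to it than dSRF was. The annotated spans of KRT8 and KRT18 overlap, and reads from the shared stretch may be split between them. KRT19 was the third of 5 simple keratins to be lower (-2.40 ± 0.06), and 2 were higher, KRT7 among them (0.62 ± 0.05), with a median of -2.40. KRT16, a stress keratin, had 0.359 ± 0.0708 CPM in dSAP and 139 ± 2.74 CPM in dSRF (-8.57 ± 0.13, adjusted p = 1.08e-18). It belongs to a family of near-identical genes, and its level is uncertain.

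Other epithelial genes followed, 12 of 19 lower and 4 higher in dSAP (median -0.77). EPCAM, an epithelial adhesion molecule, averaged 25.1 ± 1.85 CPM in dSAP and 89.1 ± 3.40 CPM in dSRF (-1.83 ± 0.07, adjusted p = 1.47e-13). DSP, the desmosome protein desmoplakin, averaged 315 ± 1.31 CPM in dSAP and 999 ± 11.7 CPM in dSRF (-1.66 ± 0.03, adjusted p = 1.48e-17). FOXA1, a transcription factor of luminal breast cells, had 1 read in all in dSAP and 14.3, 12.5 and 12.5 CPM in dSRF. Cadherins and regulators of the epithelial-mesenchymal transition were mostly higher, 9 of 10 higher and 0 lower (median 1.49). TWIST1 and TWIST2 had 0 counts in both lines. CDH1, the epithelial cadherin, was higher in dSAP as well (1.55), unlike most epithelial genes above. Against the shared control libraries, 4 of the 10 genes were higher and 1 lower in dSAP (median 0.00), beside 25.3% and 23.5% of all genes. In dSRF 1 was higher and 9 lower (median -1.12), beside 38.1% and 35.9%. SNAI1, the repressor Snail, had 2.52, 2.82 and 2.53 CPM in dSAP and 0.472, 0.338 and 0.350 CPM in dSRF (2.74 ± 0.30, adjusted p = 2.13e-07). CDH2, N-cadherin, had 15.3, 10.6 and 12.2 CPM in dSAP and 3.91, 3.32 and 3.60 CPM in dSRF (1.82 ± 0.14, adjusted p = 1.78e-09). VIM, the mesenchymal filament vimentin, was high in both lines, at 1351 ± 52.3 CPM in dSAP and 1236 ± 102 CPM in dSRF (0.13 ± 0.05, adjusted p = 0.0294).

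Markers of other cells were read in the same libraries, since several lists above hold genes of other tissues. Of 8 luminal breast markers the sum was 284 to 327 CPM in dSAP and 1424 to 1527 CPM in dSRF, most of it KRT19. ESR1 averaged 0 CPM in dSAP and 0.0617 CPM in dSRF, PGR had 0 counts in both, and GATA3 was higher in dSAP (0.34 ± 0.09, adjusted p = 0.00328). Of the 6 luminal markers tested, 4 were lower in dSAP and 2 higher, GATA3 and CDH1 (1.55). Of 10 immune markers the sum was 34.5 to 43.7 CPM in dSAP and 186 to 214 CPM in dSRF. CD68, a lysosomal protein abundant in macrophages, made up most of that, with 31.2 ± 3.79 CPM in dSAP and 198 ± 15.0 CPM in dSRF, and PTPRC, MS4A1 and NKG7 had 0 counts in both. Of the 2 immune markers tested, CD68 was lower in dSAP (log2 -2.67) and the other was higher (0.79). Chosen after their values were seen, the lymphocyte receptor genes SLAMF1 (0 counts in dSAP, and 12.7, 15.2 and 11.1 CPM in dSRF), CD28 (0.0362 ± 0.0314 CPM in dSAP and 1.76 ± 0.378 CPM in dSRF) and IL21R (0.0209 ± 0.0362 CPM in dSAP and 2.14 ± 0.317 CPM in dSRF) were, like CD68, higher in dSRF. Of 8 endothelial markers the sum was 6.63 to 6.83 CPM in dSAP and 26.8 to 28.5 CPM in dSRF. VWF made up most of the difference, at 0.297 ± 0.0959 CPM in dSAP and 18.0 ± 0.311 CPM in dSRF, with CLDN5 and ERG at 0 counts. The sum of 8 fibroblast markers was 54.4 to 58.8 CPM in dSAP and 40.5 to 45.6 CPM in dSRF, with DCN and THY1 at 0 counts. Each of these lists thus holds genes at 0 counts in both lines and genes that were expressed and differed, and the part of such cells in the results was not tested.

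The S100 genes, small calcium-binding proteins, were lower in dSAP without exception among the 9 tested (median -1.66). S100A3 had 4.46, 5.51 and 4.72 CPM in dSAP and 391, 403 and 361 CPM in dSRF (-6.30 ± 0.11, adjusted p = 2.71e-14). S100A2 had 5.98, 6.45 and 5.67 CPM in dSAP and 301, 337 and 293 CPM in dSRF (-5.69 ± 0.17, adjusted p = 8.91e-10). S100A4, linked to metastasis in breast cancer, averaged 92.3 ± 6.34 CPM in dSAP and 678 ± 33.6 CPM in dSRF (-2.88 ± 0.13, adjusted p = 2.21e-08), with control between at 297 ± 47.2 CPM. These 3 genes are neighbours on chromosome 1, and the annotated spans of S100A3 and S100A4 overlap. Of 6 metallothioneins, which bind zinc and copper, 5 were lower and 0 higher (median -2.68). MT1X had 5.40, 5.33 and 4.89 CPM in dSAP and 117, 115 and 93.0 CPM in dSRF (-4.38 ± 0.10, adjusted p = 1.16e-15), with control at 7.79 ± 0.595 CPM.

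A set of genes expressed in dSRF was at or near 0 counts in dSAP. With a limit of 3 counts summed over the dSAP libraries and at least 1 CPM in every dSRF library, 126 genes qualified, 125 of them outside the MHC region of chromosome 6. By the same limits turned round, 1 gene qualified, CPA3, a carboxypeptidase of mast cells, with 1.32 ± 0.144 CPM in dSAP and 0.0501 ± 0.0867 CPM in dSRF. Of the 126 genes, 96 also had at most 3 counts in control and at most 3 in WT, so that dSRF was the one plate line with more than a few reads. These genes were chosen by their counts in this contrast, so the values that follow are a description.

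IGFL1, an insulin growth factor-like ligand (ENSG00000188293, chromosome 19, 46229752 to 46231243), had 0 counts in dSAP and 836, 897 and 793 CPM in dSRF. Against a floor of 3 counts over the dSAP group (0.0568 CPM) it was at least 14835-fold lower in dSAP. CYP4B1, a cytochrome P450, had 0 counts in dSAP and 134, 131 and 128 CPM in dSRF, at least 2306-fold lower in dSAP. KLHDC7A, a kelch domain gene, had 0 counts in dSAP and 39.1, 40.8 and 37.8 CPM in dSRF, at least 691-fold lower. The 3 dSRF libraries lay close together for each of these genes, and all 3 had 0 counts in WT and control as well. CRCT1, of the epidermal differentiation cluster, was at least 444-fold lower (25.2 ± 2.47 CPM in dSRF) and SLC34A2, a phosphate transporter, at least 398-fold lower (22.6 ± 2.41 CPM in dSRF). PDPN, podoplanin, and CYP19A1, the aromatase that makes oestrogen, had 0 counts in dSAP, and in dSRF PDPN had 6.58 ± 0.909 CPM and CYP19A1 8.32 ± 1.44 CPM. Genes with 1 to 3 counts in dSAP included DAAM2, a formin-related regulator of actin (0.0209 ± 0.0362 CPM in dSAP and 21.2 ± 1.74 CPM in dSRF), the ligand gene BMP2 (0.0349 ± 0.0605 CPM in dSAP and 16.8 ± 1.75 CPM in dSRF) and the transcription factor gene SOX4 (0.0209 ± 0.0362 CPM in dSAP and 6.23 ± 0.741 CPM in dSRF). LCE3D, MT1B and ZNF716 have near-identical relatives and TRIM26 lies in the MHC region, so their absence from dSAP is uncertain. Because each mutant is held by 1 line, an origin of these genes in the mutant or in the line cannot be told apart.

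**Figure D3:**
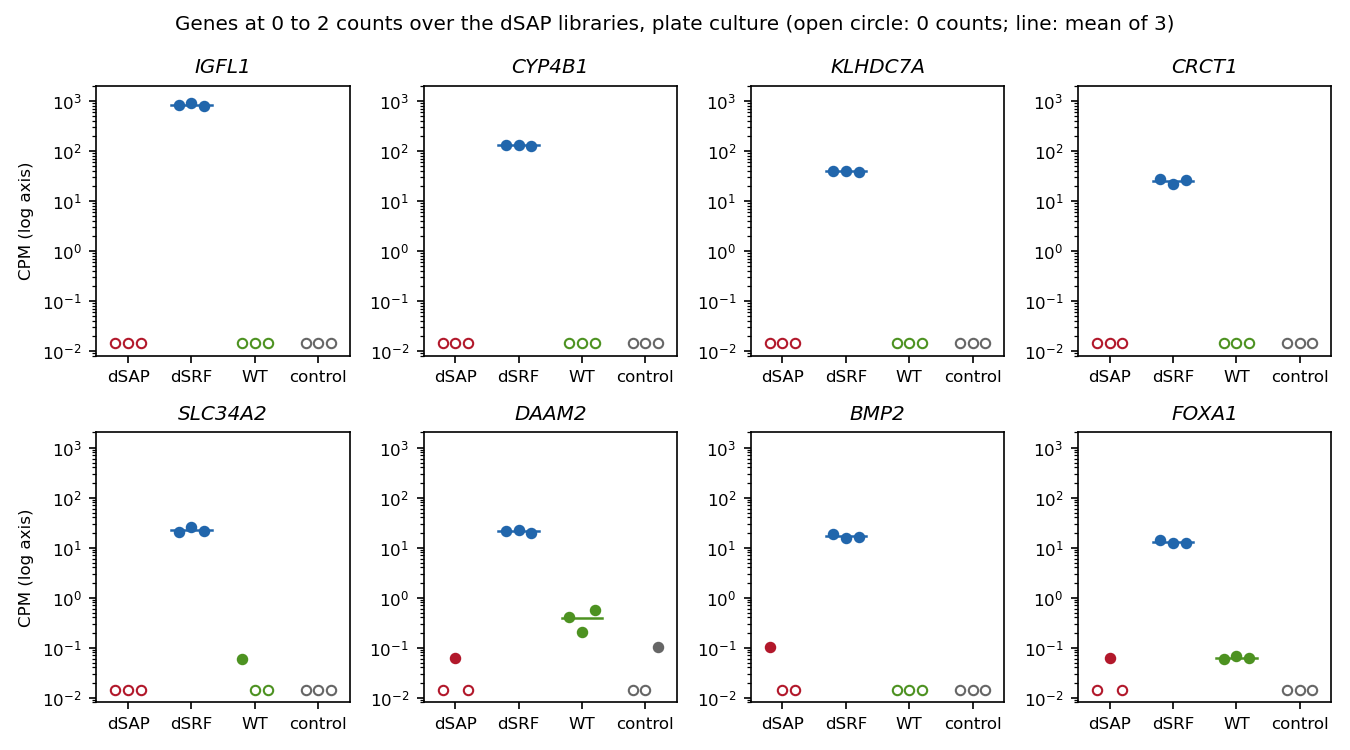
CPM (log axis) of 8 genes with 0 to 2 counts over the dSAP libraries, in the plate libraries of dSAP, dSRF, WT and control, with 1 point per library, open circles for 0 counts and a line at the mean of 3 where all are above 0. The dSRF libraries lie between 12.5 CPM (FOXA1) and 897 CPM (IGFL1), and every other library of these genes is below 1 CPM.

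All 30 genes of mitosis and chromosome segregation were higher in dSAP (median 1.21, from 0.61 to 1.81). MKI67, the proliferation marker Ki-67, had 422, 404 and 385 CPM in dSAP and 149.8, 161 and 168 CPM in dSRF (1.34 ± 0.05, adjusted p = 4.70e-13). DLGAP5, a spindle protein, had 158, 153 and 150.1 CPM in dSAP and 39.2, 44.7 and 47.0 CPM in dSRF (1.81 ± 0.06, adjusted p = 1.34e-14). Neither line exceeded control, where MKI67 stood at 586 ± 35.0 CPM and DLGAP5 at 188 ± 10.6 CPM. Against the shared control libraries, 0 of the 30 genes were higher and 23 lower in dSAP, where 25.3% of all genes were called higher and 23.5% lower, and 0 were higher and 30 lower in dSRF, where 38.1% were called higher and 35.9% lower. The 13 replication-dependent histone genes tested were also all higher in dSAP than in dSRF (median 1.26), and 24 of 30 DNA replication genes were higher and 2 lower (median 0.49). Of 16 cyclins and CDK inhibitors 11 were higher and 2 lower, with the inhibitor CDKN2C at 1.70 ± 0.06.

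Genes induced by hypoxia and of glycolysis were mostly higher, 22 of 26 against 3 lower (median 1.02). LDHA, lactate dehydrogenase, averaged 1992 ± 181 CPM in dSAP and 747 ± 74.6 CPM in dSRF (1.41 ± 0.08, adjusted p = 2.54e-09). EGLN3, a prolyl hydroxylase that HIF induces, had 12.2, 14.8 and 14.3 CPM in dSAP and 1.42, 1.02 and 1.85 CPM in dSRF (3.23 ± 0.16, adjusted p = 3.21e-12). CA9, carbonic anhydrase 9, had 2.52, 4.76 and 4.21 CPM in dSAP and 0.0675, 0.406 and 0.501 CPM in dSRF (3.45 ± 0.42, adjusted p = 9.08e-06). Control stood above both lines for LDHA (2612 ± 109 CPM) and CA9 (10.9 ± 2.66 CPM). Exceptions were GAPDH (-0.33 ± 0.05) and VEGFA (-0.44 ± 0.09), which were lower in dSAP.

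Of 14 NF-kB subunits and feedback genes 11 were lower and 2 higher (median -0.55), with the inhibitor NFKBIA at 97.8, 93.9 and 92.4 CPM in dSAP and 330.3, 331 and 332 CPM in dSRF (-1.81 ± 0.04, adjusted p = 6.06e-17). Of 17 chemokine, IL6 and colony-stimulating factor genes 11 were lower and 3 higher (median -1.06). CSF2, encoding GM-CSF, had 17.6, 20.9 and 21.4 CPM in dSAP and 157, 153 and 143 CPM in dSRF (-2.92 ± 0.09, adjusted p = 2.34e-12), while IL11 was higher (2.11 ± 0.09). Of 29 interferon response genes 17 were lower and 8 higher (median -0.83). The guanylate-binding protein gene GBP1 was among the higher ones, at 145 ± 2.26 CPM in dSAP and 17.7 ± 2.01 CPM in dSRF (3.02 ± 0.06, adjusted p = 2.25e-17), and MX2 among the lower (-2.52 ± 0.15). Of 15 p53 targets 10 were lower and 2 higher (median -0.64), with the death receptor FAS at -3.04 ± 0.08 and CDKN1A at -0.90 ± 0.05. MDA-MB-231 is known to carry mutant p53, so this list names genes and not the activity of the protein. Cytosolic ribosomal protein genes had small folds, with 20 of 39 higher, 2 lower and a median of 0.12, and 9 were higher with all 24 libraries in 1 fit. Of 13 genes of the mitochondrial genome 1 was called, MT-ND6 (1.06, adjusted p = 0.00890). Their summed level varied between libraries of a group, from 5533 to 6977 CPM in dSAP and from 4659.7 to 8798 CPM in dSRF. MT-ND3 was called lower in dSAP with a replicate block in edgeR's test (-0.31, adjusted p = 6.63e-05). It was also called lower on TPM and without the third dSRF library.

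**Figure D4:**
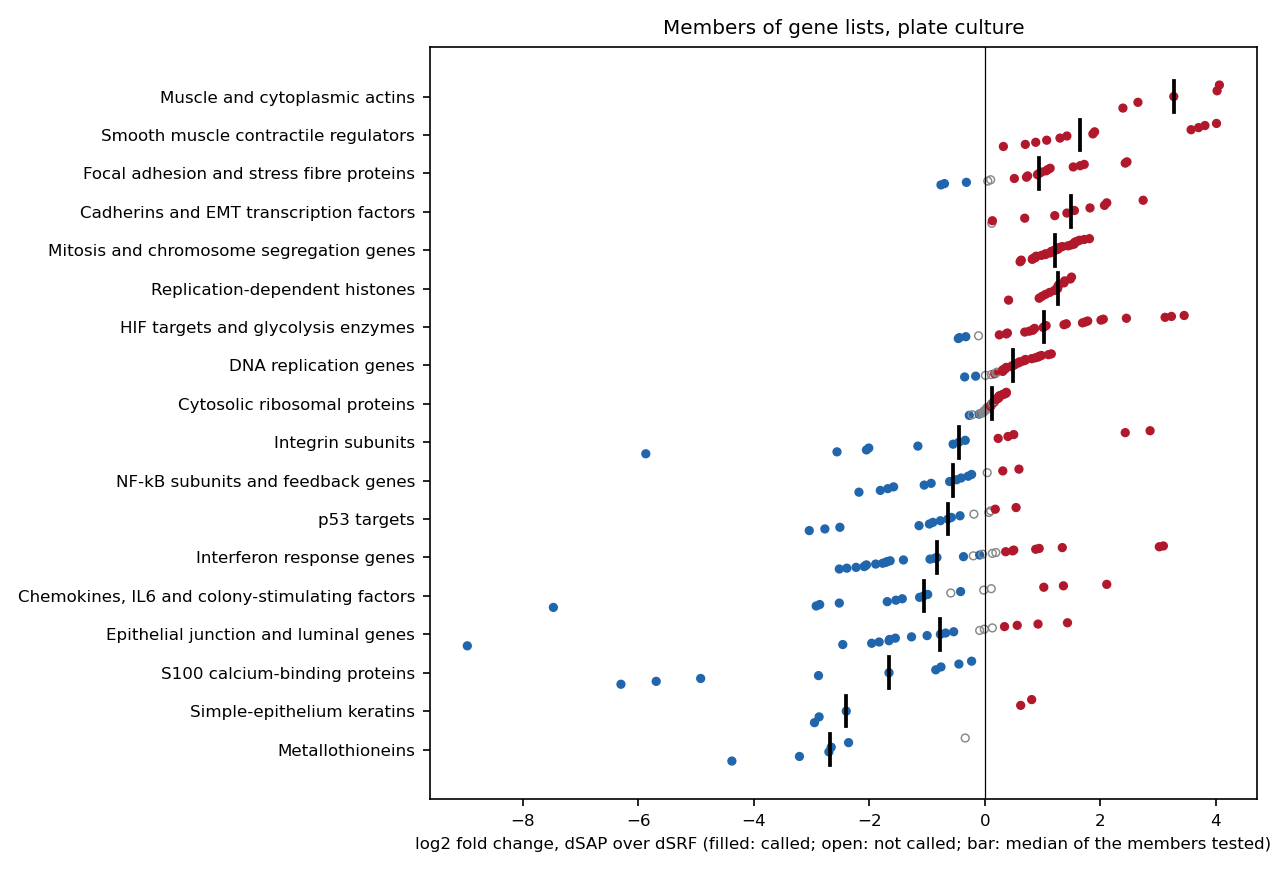
Log2 fold change of dSAP over dSRF (horizontal axis) for the tested members of gene lists, with 1 point per gene, filled red for called higher, filled blue for called lower, open for not called, and a bar at the median of each list. Actins (median 3.27), mitosis genes (1.21) and histones (1.26) lie wholly to the right of 0, and S100 genes (-1.66) wholly to the left.

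The 20 genes with the largest rises by the naming rule, all with non-overlapping groups, spanned log2 fold changes of 3.62 to 4.53, and some belong to none of these lists. The highest, PRRC2A, lies in the MHC region and is uncertain: it had 5.14, 4.51 and 6.46 CPM in dSAP and 0.742, 0 and 0 CPM in dSRF. Without the first dSRF library its fitted log2 fold was 9.56, against libraries at 0 counts, and so depends on the prior count. FGF1, a fibroblast growth factor, had 79.6, 70.5 and 75.1 CPM in dSAP and 4.79, 4.67 and 7.66 CPM in dSRF (3.68 ± 0.12, adjusted p = 3.78e-12), and in dSRF did not differ from control beyond the spread (5.39 ± 0.431 CPM, adjusted p = 0.492). ALX1, a homeobox gene, had 7.08, 8.71 and 7.19 CPM in dSAP and 0.337, 0.406 and 0.601 CPM in dSRF (4.04 ± 0.29, adjusted p = 1.43e-08), and 0 counts in WT and control. CCDC190 had 66.0, 57.1 and 63.1 CPM in dSAP and 3.58, 3.59 and 6.06 CPM in dSRF (3.77 ± 0.16, adjusted p = 1.14e-09). Another kind of gene was low in dSRF and at the control level in dSAP. GJA1, connexin 43, had 9.43, 10.3 and 8.65 CPM in dSAP, 0.810, 0.474 and 0.951 CPM in dSRF and 8.70 ± 0.669 CPM in control (3.62 ± 0.20, adjusted p = 1.43e-11). COL8A2, a short-chain collagen, averaged 5.88 ± 0.514 CPM in dSAP, 0.409 ± 0.182 CPM in dSRF and 6.23 ± 0.551 CPM in control (3.78 ± 0.23, adjusted p = 7.84e-11).

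Set beside the control line, more genes were called in dSRF than in dSAP. Against the same 3 control libraries, 6992 genes (48.8%) were called in dSAP, 25.3% higher and 23.5% lower, and 10598 (74.0%) in dSRF, 38.1% higher and 35.9% lower. KRT8 shows the asymmetry, at 0.43 over control in dSAP (adjusted p = 1.92e-08) and 3.30 in dSRF (adjusted p = 2.89e-20). MYL9 shows the reverse, at 3.98 in dSAP (adjusted p = 2.30e-07) and 0.08 in dSRF (adjusted p = 0.710).

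The same contrast was made on matrigel in libraries of their own. There 8473 of 14438 genes were called (58.7%), or 10856 of 14923 (72.7%) without the library titled 3D dSRF 1. That library stood apart, with 687 CPM of MRTFA against 5028 and 5025 CPM in the other two dSRF libraries on matrigel, and correlated less across genes with them (r = 0.962) than with the plate dSRF mean (r = 0.981). The other matrigel dSRF libraries were as near to that mean (r = 0.980 and 0.983), and correlated at 0.985 and 0.988 with the rest of their group. Of genes called at least 2-fold higher in dSAP in plates and tested in both cultures, 941 of 1190 (79.1%) were called higher on matrigel and 10 lower. Of those at least 2-fold lower, 1400 of 1685 (83.1%) were called lower and 11 higher. Without 3D dSRF 1 the shares were 86.9% of 1205 and 91.6% of 1829. These shares are to be read beside the 28.6% of all genes called higher and 30.1% called lower on matrigel, or 36.3% and 36.5% without that library.

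The fold itself was then compared between cultures in 1 fit of all 24 libraries, which called 4132 of 14986 genes (27.6%), or 6456 of 15246 (42.3%) without 3D dSRF 1. CPM were normalised within each culture, so levels are not set across cultures. Some contractile genes differed more on matrigel, though the median of the smooth muscle regulators was 1.47 there (8 of 11 higher) and 1.65 in plates (12 of 12 higher). ACTG2 had 713, 711 and 675 CPM in dSAP and 9.92, 1.22 and 0.102 CPM in dSRF, and its fold differed between cultures by 3.40 ± 0.70 (adjusted p = 0.00172), or 6.04 (adjusted p = 1.20e-06) without 3D dSRF 1. TNC had 551, 518 and 528 CPM in dSAP and 21.1, 10.9 and 10.7 CPM in dSRF, a difference between cultures of 1.60 ± 0.32 (adjusted p = 9.54e-04). CCN1 changed direction. On matrigel it had 493, 499.6 and 464 CPM in dSAP and 2817, 1132 and 1132 CPM in dSRF (-1.80 ± 0.29, adjusted p = 3.62e-04), below its rise of 0.40 in plates by 2.19 (adjusted p = 3.58e-05), or by 1.60 (adjusted p = 3.79e-15) without 3D dSRF 1. DEFB103B, a beta-defensin, likewise stood at 0.402, 0.825 and 0.286 CPM in dSAP and 2.67, 2.00 and 1.53 CPM in dSRF on matrigel (-2.01 ± 0.51, adjusted p = 0.00574), against 8.31 ± 0.663 CPM in dSAP and 1.74 ± 0.342 CPM in dSRF in plates (2.26 ± 0.18, adjusted p = 2.28e-09). KRT7 turned as well, at 0.62 ± 0.05 in plates and -1.27 ± 0.05 on matrigel (adjusted p = 1.72e-08), a difference of -1.88 ± 0.08 (adjusted p = 4.18e-12). CYP1B1, a P450 enzyme that the aryl hydrocarbon receptor induces, was lower in dSAP in plates (-1.56 ± 0.05) and higher on matrigel (1.25 ± 0.06, adjusted p = 6.58e-08), a difference of 2.82 ± 0.08 (adjusted p = 7.34e-15). SRF showed no such difference, with 1.47 ± 0.10 on matrigel and a difference of -0.01 ± 0.12 (adjusted p = 0.962), and FGF1 likewise, with 3.90 ± 0.27 and a difference of 0.21 ± 0.28 (adjusted p = 0.635).

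**Figure D5:**
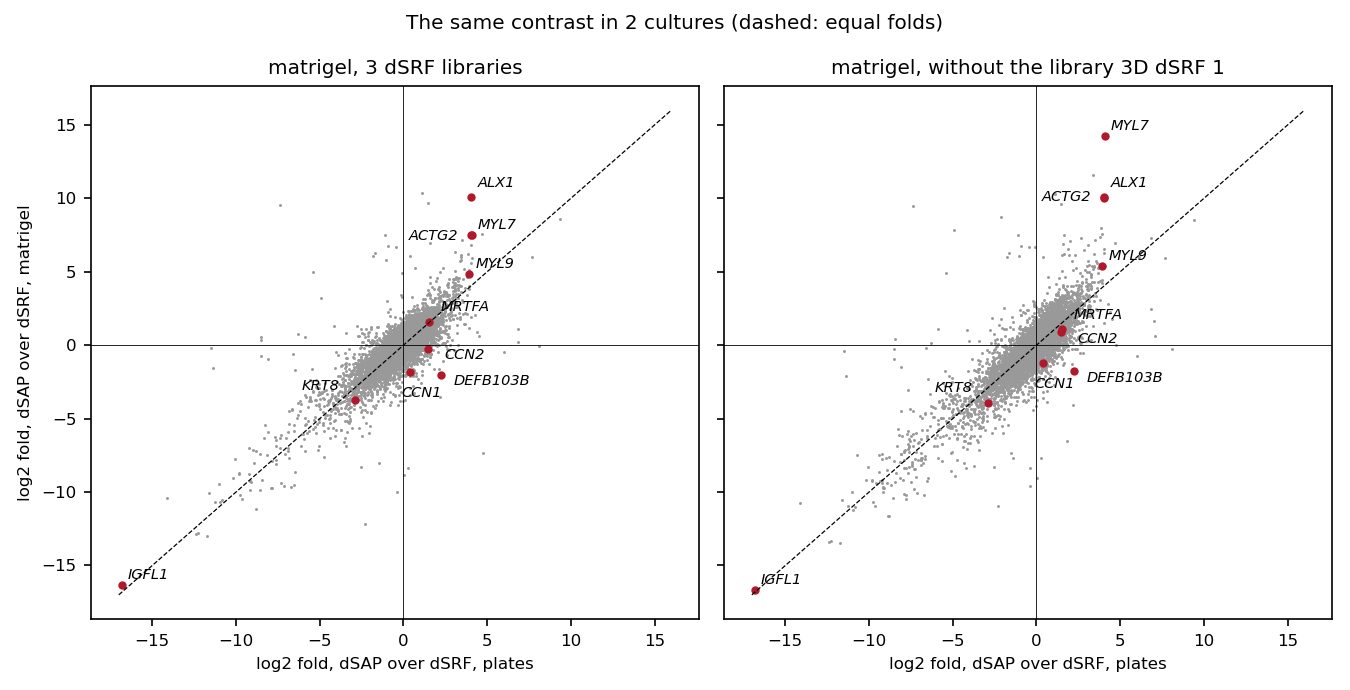
Log2 fold change of dSAP over dSRF on matrigel (vertical axis) against that in plates (horizontal axis), with 1 point per gene tested in both cultures and the dashed line at equal folds, for all matrigel libraries (left) and without 3D dSRF 1 (right). Most genes follow the line, ACTG2, MYL7 and ALX1 lie above it, and CCN1 and DEFB103B lie below 0 on matrigel only.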

How the data were processed

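RNA was sequenced from rRNA-depleted total RNA with a stranded kit, as the labels' protocols state, while the molecule field names polyA RNA. The authors deposited estimated counts and TPM per gene. FastQC and Salmon (version written as 11.3) with hg38 are named in the submitters' processing notes, and which annotation was used is not given in the sources. Estimated counts were rounded to whole numbers. Of 37247 gene IDs, 34620 matched a symbol and position of GENCODE 29. The members and gene lists were chosen with earlier results of these data known.

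Groups follow the titles. The plate fit used 12 libraries in 4 groups with filterByExpr, TMM scaling and robust quasi-likelihood in edgeR 4.0.16 (R 4.3.3, limma 3.58.1), leaving 14330 genes, 8 residual degrees of freedom and a biological coefficient of variation of 6.58%. The call threshold was an adjusted p (Benjamini-Hochberg) under 0.05. The matrigel fit was built alike, and the difference between cultures came from all 24 libraries with 16 residual degrees of freedom. CPM were computed within each culture. Tables were prepared with Python 3.11.15. Precision is limited by total counts, from 13968829 in the shallowest plate library, and floors cover counting error only.

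Genes were named by rule: the 20 called genes with the largest and the 20 with the smallest log2 fold change at 1 CPM or more with non-overlapping groups (7 of the 40 uncertain, from the MHC region or near-identical families), 12 fixed genes, up to 4 members per list with the lowest p from 44 lists, and 5 in each direction between cultures. On simulated counts for 14330 genes the plate test recovered 76 of 100 genes changed 2-fold and 66 of 100 changed 1.5-fold, with 5 false calls among 147. Only these genes were changed in the simulation, whereas 73.1% of genes were called in the data. Its rates therefore need not hold for the reported test. Replicates of a group differed beyond sampling noise, with a chi-square per degree of freedom of 2.59 to 8.21, so none was counted as a duplicate. Alternatives were DESeq2 1.42.0, RLE scaling, no filter, limma on log2(TPM + 1) or log2(TPM + 0.1), other sets of libraries, a replicate block and leaving out each library. Promoters are RefSeq windows of GRCh38.p14.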

Additional observations from a re-analysis of the deposited data

Results flagged for a closer look

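The fold of dSAP over dSRF differed between matrigel and plates for 24 named genes by a test of the difference itself (edgeR's quasi-likelihood test on 24 libraries, Benjamini-Hochberg adjusted), where 27.6% of 14986 genes were called. Among them, the 5 in each direction between cultures were named because this test called them. The 24 are therefore not a share to set beside the 27.6%. List members such as KRT7 and CYP1B1, given above, were not counted among them. Values are matrigel minus plates on the log2 scale, and a positive one means a higher fold on matrigel.

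The 6 contractile genes among them had higher folds on matrigel, which did not hold for the contractile lists as a whole: the median log2 fold was 1.47 on matrigel and 1.65 in plates for smooth muscle contractile regulators, 0.53 and 0.80 for myosin II chains, and 1.09 and 1.40 for tropomyosins. The difference was 3.40 for ACTG2 (adjusted p = 0.00172), 3.37 for MYL7 (adjusted p = 0.00312, or 10.08 without 3D dSRF 1, a fit against matrigel dSRF libraries at 0 counts), 2.79 for LMOD1 (adjusted p = 0.00105), 1.59 for ACTA2 (adjusted p = 8.65e-05), 1.57 for ACTC1 (adjusted p = 0.0194) and 0.93 for MYL9 (adjusted p = 0.0432). The call of MYL9 was lost without a low-count filter (adjusted p = 0.119), with the replicate block (adjusted p = 0.0591) and on leaving out any 1 of 9 of the 12 dSAP and dSRF libraries (adjusted p = 0.0571 to 0.147). MYL7 had 124, 131 and 138 CPM in dSAP and 2.00, 0 and 0 CPM in dSRF on matrigel. Not called were TAGLN at 0.95 (adjusted p = 0.173), CNN1 at -2.80 (adjusted p = 0.131) and KCNMB1 at -2.22 (adjusted p = 0.143). CNN1 was called with DESeq2 (-2.74, adjusted p = 0.0256) and with limma on log2(TPM + 1) (-2.10, adjusted p = 2.92e-05). Without 3D dSRF 1 the differences were 2.15 for TAGLN (called, adjusted p = 1.27e-04), 0.55 for CNN1 and 1.11 for KCNMB1. The matrix gene TNC differed by 1.60 (adjusted p = 9.54e-04), the coactivator gene MRTFB by 0.41 (adjusted p = 2.53e-04, or 0.0503 on TPM with a pseudocount of 0.1) and VCL by -0.23 (adjusted p = 0.00787, not called on TPM, adjusted p = 0.110 with a pseudocount of 0.1).

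CCN1 differed by -2.19 (adjusted p = 3.58e-05) and CCN2 by -1.73 (adjusted p = 0.0171), or by -1.60 and -0.56 without 3D dSRF 1. The CCN2 call was lost on TPM (adjusted p = 0.0639 with a pseudocount of 0.1 and 0.0534 with 1). ALX1 differed by 5.91 (adjusted p = 2.54e-04), with 0 counts in all matrigel dSRF libraries. DUSP13 differed by -2.08 (adjusted p = 0.0164). PPFIA4 differed by 0.87 (adjusted p = 0.0354) and GJA1 by -2.18 (adjusted p = 0.0312), and both calls were lost without 3D dSRF 1 (adjusted p = 0.126 and 0.709). TRIM26, of the MHC region, differed by 11.45 (adjusted p = 0.00282), with 18.9, 26.7 and 7.78 CPM in dSAP and 13.4, 26.7 and 20.9 CPM in dSRF on matrigel.

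Of the genes with the largest differences between cultures, several were near 0 in 1 or more groups, where the fitted value is no bound. SERPINB2 differed by 5.29 (adjusted p = 0.0301), SLC9A2 by 5.19 (adjusted p = 0.0370) and SERPING1 by 4.49 (adjusted p = 0.00652). Lower folds on matrigel were fitted for NUDT4B at -8.47 (adjusted p = 0.0382), KRT34 at -7.13 (adjusted p = 0.0426), XIRP1 at -5.07 (adjusted p = 6.61e-04), DEFB103B at -4.25 (adjusted p = 2.55e-06) and PSG10P at -3.91 (adjusted p = 0.00676). Several of these calls rest on few libraries or on 1 setting. Without 3D dSRF 1 those of NUDT4B (adjusted p = 0.0738) and KRT34 (adjusted p = 1.000) were lost, as they were on leaving out most other dSAP or dSRF libraries (adjusted p = 0.0544 to 0.0849 for NUDT4B and 0.0512 to 0.0831 for KRT34) and without a low-count filter (0.0838 for NUDT4B and 0.0756 for KRT34). SERPINB2 was 2.50 (adjusted p = 1.000) without the third plate dSRF library. SLC9A2 was lost on leaving out any plate dSAP library and 4 others (adjusted p = 0.0516 to 0.158) and on TPM (0.0733 with a pseudocount of 0.1). SERPING1 was lost on TPM (adjusted p = 0.0594 with a pseudocount of 0.1 and 0.808 with 1), and PSG10P with a pseudocount of 1 (adjusted p = 0.256). KRT34 had 0 counts in dSAP on matrigel, and 1.02, 0 and 0 CPM in dSRF.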

How the results depend on the processing

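For the plate comparison, 9368 genes were called with log2(TPM + 0.1) and 10881 with all libraries except 3D dSRF 1, the extremes of the alternatives, beside 10474 as reported, and DESeq2 called 9992. Genes called with at least 2-fold change ran from 2397 with log2(TPM + 1), which shrinks low genes by construction, to 3671 without a filter. Leaving out each replicate in turn gave 10093 to 10250 genes, 4992 to 5083 higher, 5086 to 5188 lower and 3101 to 3224 with at least 2-fold change. On matrigel it gave 7640 to 10856 genes, and for the difference between cultures 3460 to 6456, the highest without 3D dSRF replicate 1 in both. The difference between cultures for MRTFA was 0.11 (adjusted p = 0.916), with -0.38 (adjusted p = 2.06e-05) without 3D dSRF replicate 1 and up to 0.44 when another replicate was left out. For 212 genes named in the plate comparison and 3179 pairs of gene and alternative, 3150 kept direction and call, 25 lost the call, 4 gained it and 0 reversed. For 22 genes of the difference between cultures and 395 such pairs, 339 kept direction and call, 52 lost the call, 3 gained it and 1 reversed, that of MRTFA. Of 1320 pairs of list count and alternative, from 88 list counts, 67 moved by more than 1.5 times. With the replicate block 10501 genes were called in plates, 8246 on matrigel and 3956 for the difference between cultures. The replicate numbers were not used as pairs in the main fit, and the labels give no shared batch. The deviations of same-numbered dSAP and dSRF plate libraries correlated at 0.0122, 0.0856 and 0.0816. Those of differently numbered libraries correlated at -0.0895 to 0.0159. Whether same-numbered libraries share a batch was not tested. Genes near 0 are limited by depth, and 1 line per construct limits every comparison.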

Other observations

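Other pathways were divided between the lines, as were all genes tested, of which 36.1% were called higher and 37.0% lower in dSAP. The counts that follow are a description beside these shares. Of 11 BMP response genes 5 were higher and 6 lower in dSAP (median -0.96). Of 18 ATF4 targets and serine synthesis genes 5 were higher and 10 lower (median -0.18), and of 22 cholesterol and fatty acid synthesis genes 13 were higher and 8 lower (median 0.42). Of 16 ferritin and NRF2 target genes 10 were higher and 5 lower (median 0.25), with NQO1, a quinone reductase, among the lower ones (-1.55). Of 15 ER chaperone and unfolded protein response genes 7 were higher and 6 lower (median 0.22). Of 21 immediate early genes, the quick transcriptional response to growth factors, 5 were higher and 9 lower (median -0.01). DUSP6, a phosphatase that restrains ERK, had 51.3, 50.7 and 48.9 CPM in dSAP and 217, 226 and 220.1 CPM in dSRF (-2.14 ± 0.04). Of 7 aryl hydrocarbon receptor genes 1 was higher and 4 lower, with CYP1B1 at -1.56. Over chromosomes, the share of tested genes called higher in dSAP was 45.7% on chromosome 20 and 44.9% on chromosome 12, beside 36.1% of all genes.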
